A study of Mus musculus with 2 samples.

Results

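The neuropeptide genes of the olfactory bulb described here are Npy, Sst, Vip, Cck, Cartpt, Penk, Pdyn, Tac1, Trh and Nts, taken as every non-control probe that carries 1 of these gene names on both arrays. They are 10 of the 37074 gene names on the array and are covered by 14 probes. Total RNA of the olfactory bulb, the first relay of smell in the forebrain, was labelled with Cy3 and hybridised to 1 Agilent mouse array for each of 2 mice. The odor-enriched mouse had been kept under odor-enriched conditions and the control mouse under standard odor conditions; the labels read here state no strain, age, sex, odor or duration. Each group is a single array, so no value below has a replicate error or a test, and precision is limited by the count of 2 arrays. Each value is the signal of a spot after background subtraction by the scanner software, and each difference is odor enriched minus control in log2 units, after the 75th percentile of its array had been subtracted from every probe.

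Neuropeptides are cut from longer precursor proteins, usually after pairs of basic amino acids such as lysine followed by arginine, are stored in dense-core vesicles and act on receptors that couple to G proteins. In the bulb, many local inhibitory neurons (granule and periglomerular cells) and some of the excitatory projection neurons (mitral and tufted cells) make a peptide beside GABA or glutamate. Their messages therefore serve as markers of neuron classes, and several are known to follow neuronal activity. Penk and Pdyn encode the opioid precursors, Tac1 the tachykinins substance P and neurokinin A, and Cck a peptide well known from tufted cells. Npy, Sst and Vip mark sets of interneurons, and Npy is also known from olfactory ensheathing glia, the cells that wrap the incoming sensory axons.

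The arrays held 60-base probes, and where a probe lies in the message sets what it measures. The probes of the 4 members that differed by at least 2-fold are shown first, because each of them rests on a single probe. Capitals mark the letters of a lysine codon (AAA or AAG) directly followed by those of an arginine codon (AGA, AGG or any codon that starts with CG), searched on the printed strand in any frame, and Pdyn has none.
Cartpt, chr13:100668967-100669956, mm9, minus strand: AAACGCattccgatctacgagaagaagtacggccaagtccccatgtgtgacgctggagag
Npy, chr6:49773743-49777505, mm9, plus strand: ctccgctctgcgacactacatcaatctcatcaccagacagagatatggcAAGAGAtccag
Nts, chr10:101944967-101945026, mm9, minus strand: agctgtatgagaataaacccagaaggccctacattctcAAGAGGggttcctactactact
Pdyn, chr2:129512323-129512382, mm9, minus strand: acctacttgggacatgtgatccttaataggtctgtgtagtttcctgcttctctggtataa
The Cartpt and Npy probes cover 990 and 3763 bases of the genome with 60 bases of sequence, so each crosses at least 1 exon junction. The letters of a lysine and an arginine codon were found in 14.9% of all 56605 probes, so a match is a description of the letters, and the reading frame was not checked against an annotation.

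The members with more than 1 probe are Penk, with 2, and Tac1, with 4. Both Penk probes and the 2 Tac1 probes of the RefSeq message are shown, because probes of the same gene gave different values. Capitals again mark a lysine codon followed by an arginine codon.
Penk, probe of the RefSeq message, chr4:4060735-4060794, mm9, minus strand: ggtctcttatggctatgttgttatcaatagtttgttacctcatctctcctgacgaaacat
Penk, probe of an Ensembl transcript, chr4:4065808-4065867, mm9, minus strand: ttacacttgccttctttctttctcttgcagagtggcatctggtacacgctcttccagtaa
Tac1, brighter probe of the RefSeq message, chr6:7512893-7512952, mm9, plus strand: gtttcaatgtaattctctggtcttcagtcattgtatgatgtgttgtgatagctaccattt
Tac1, dimmer probe of the RefSeq message, chr6:7507722-7509136, mm9, plus strand: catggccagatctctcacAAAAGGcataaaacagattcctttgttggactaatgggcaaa
The dimmer Tac1 probe spans 1415 bases of the genome and so crosses an exon junction too. Of the 14 member probes, 11 carry a RefSeq accession, and all 11 matched the same symbol in the RefSeq gene table of GRCm38.p6. No annotation of mm9 was used, so exons and untranslated parts are not assigned.

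Relative to control, the odor-enriched sample had lower Cartpt and Npy signals, by 4.43-fold and 3.0-fold, and higher Pdyn and Nts signals, by 3.27-fold and 2.01-fold. The other 6 members differed by less than 2-fold. All 10 members had at least 1 probe well above background on both arrays. In all, 2 of 10 were at least 2-fold higher and 2 of 10 at least 2-fold lower, where 11.5% and 5.52% of the 23872 genes measured on both arrays were (17% in either direction). The median over the members was -0.19, beside 0.0016 over all measured genes. Of the members, 7 lay outside the quartiles of all genes, which were -0.40 and 0.47. With so few members these counts describe the 10 genes and are no measure of the peptides as a class.

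**Figure D1:**
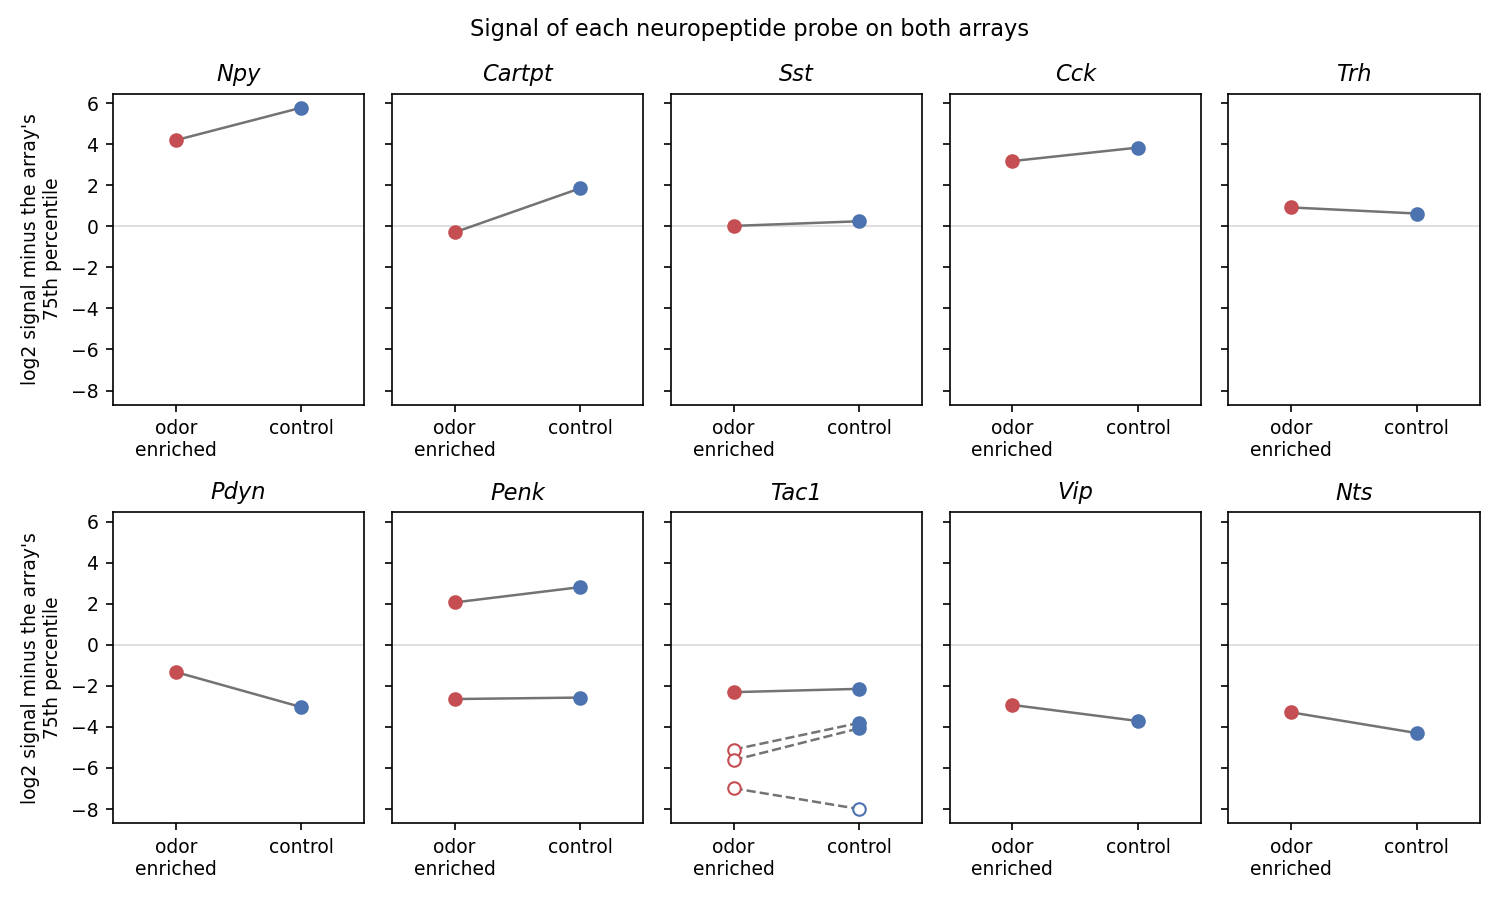
Signal of each neuropeptide probe as log2 signal minus the array's 75th percentile (vertical axis) in the odor-enriched and the control sample (horizontal axis), with a line joining the 2 values of a probe; open points were not well above background, and dashed lines mark probes not measured on both arrays. Cartpt stands at -0.30 and 1.85, Npy at 4.19 and 5.78 and Pdyn at -1.33 and -3.04 in the odor-enriched and the control sample; heights of different probes cannot be compared.

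Among the 10 members, Cartpt, which encodes the cocaine- and amphetamine-regulated transcript peptides, had the largest difference. Its processed signal was 164 ± 16.5 in the odor-enriched sample and 903 ± 90.3 in the control sample, where ± is the error that the scanner software assigns to the spot. The difference was -2.15 log2 units, with an error of 0.20 from both spots. Of all measured genes 0.398% had a lower difference, and among the 5968 genes in its band of signal, the second from the bright end, 5.48% were at least 2-fold lower. The spots around it showed no such shift, with a median difference of 0.13.

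Npy, the precursor of neuropeptide Y, gave 3682 ± 368 in the odor-enriched sample and 13714 ± 1371 in the control sample. The difference was -1.59, and 1.37% of all measured genes lay lower. Among the 5968 genes with the highest signal, to which Npy and Cck belong, 6.5% were at least 2-fold lower. The neighbouring spots of the Npy probe had a median difference of 0.19. Ensheathing glia, in which Npy is known, had lower marker signals too: 7 of 10 markers were at least 2-fold lower, such as Foxd3 (-2.12), Sox10 (-1.80) and Frzb (-1.73). None was at least 2-fold higher, where 5.52% of all measured genes were lower and 11.5% higher by this threshold. The summed signal of these markers, in units of each array's 75th percentile, was 329 in the odor-enriched and 633 in the control sample. Most of each sum came from S100b, Fabp7 and Apod, and no marker was below background. This marker list was chosen after its values were seen, and the part of these cells in the Npy difference was not tested. Fewer cells of a type and less RNA per cell cannot be told apart in whole tissue.

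Cck, the cholecystokinin precursor, differed in the same direction by less than 2-fold. Its probe was printed 10 times on each array, which gives the error of the measurement itself. The signal ran from 1806 to 1842 over the 8 usable spots of the odor-enriched array, with a median of 1820. On the control array it ran from 3494 to 3654 over 10 spots, with a median of 3551. The coefficient of variation was 0.545% on the odor-enriched and 1.52% on the control array. These signals are not scaled between the arrays, whose 75th percentiles were 7.66 (odor enriched) and 7.97 (control) in log2 units. The difference was -0.66, or 1.58-fold, and 13.6% of all measured genes lay lower. Repeat spots show only the error within an array. Over 225 probes printed as often, the difference of single spots had a pooled SD of 0.05, against 0.63 between different probes of a gene over 8234 genes.

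Markers of mitral and tufted cells, which use glutamate, were mixed. Of 8 measured markers, 3 were at least 2-fold lower and 1 at least 2-fold higher, where 5.52% and 11.5% of all measured genes were. The lower ones were Doc2g (-1.84), the vesicular glutamate transporter Slc17a7 (-1.67) and the cadherin Cdhr1 (-1.40). The transcription factor Tbx21 was at least 2-fold higher (3.11), and T and NK cells also use it. The summed signal of the 8 markers was 11.4 in the odor-enriched and 26.4 in the control sample. Most of each sum came from the 1 probe of Doc2g, at 2.63 and 4.46 log2 units, so it is no measure of the cell class. Tbx21 came next in the odor-enriched sample, at 1.59. Lhx5 was well above background in the control sample alone, where the detection limit was lower. Cck has its known place in these cells, and the part of their number in its difference was not tested.

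The 2 opioid precursors differed in opposite directions. Pdyn, the precursor of the dynorphins, gave 80.4 ± 8.21 in the odor-enriched sample and 30.5 ± 3.22 in the control sample. The raw spot mean was 109 over a local background of 24 in the odor-enriched sample, and 47.5 over 17 in the control sample. The difference was 1.71 ± 0.21 by the scanner's error, and 4.78% of all measured genes lay higher. Among the 5968 genes of its band of signal, the second from the dim end, 11.9% were at least 2-fold higher. The neighbouring spots had a median difference of -0.07.

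Penk, the precursor of the enkephalins, which granule and periglomerular cells are known to make, was lower by its brighter probe and nearly level by the other. The RefSeq probe gave 842 ± 84.2 in the odor-enriched sample and 1751 ± 175 in the control sample, a difference of -0.75. The probe of the Ensembl transcript gave 32.3 ± 3.63 and 42.1 ± 4.33 in the odor-enriched and the control sample, a difference of -0.07. That dim probe lies in row 12, column 23 of the array, beside the Pdyn probe in row 12, column 24, so the 2 adjacent spots differ by 1.71 and -0.07. The gene's mean over both probes was -0.41. Pdyn relative to Penk was thus 2.12 log2 units (4.34-fold) higher in the odor-enriched sample, a quantity that no constant per array can change. It ran from 1.24 to 2.46 over 12 other processing settings.

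Tac1 was close to level by the only probe measured on both arrays. That probe gave 40.7 ± 4.39 in the odor-enriched sample and 56.5 ± 5.74 in the control sample, a difference of -0.16. The probe across the exon junction was well above background only in the control sample, where it stood at 17.9 against 5.86 in the odor-enriched sample, and was at least 1.81-fold lower in the odor-enriched sample. Another probe, of an Ensembl transcript at chr6:7515469-7515528, was at least 1.51-fold lower. These bounds are measured from the lowest normalized signal that was well above background on the odor-enriched array, -4.66. The fourth probe was not well above background on either array.

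Nts, Vip, Sst and Trh complete the set. Nts, the neurotensin precursor, gave 20.6 ± 2.61 in the odor-enriched sample and 12.7 ± 1.60 in the control sample. This is the dimmest member, with raw means of 48.2 and 31.0 over local backgrounds of 23 and 18 in the odor-enriched and the control sample. Its difference of 1.01 ± 0.26 lies at the 2-fold threshold, and among the 5968 dimmest genes 16.3% were at least 2-fold higher. Vip, the precursor of vasoactive intestinal peptide, gave 26.5 ± 3.14 in the odor-enriched sample and 19.1 ± 2.15 in the control sample, a difference of 0.78.

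Sst and Trh, like Tac1, lay between the quartiles of all genes. Sst, the somatostatin precursor, gave 204 ± 20.5 in the odor-enriched sample and 296 ± 29.6 in the control sample, and after scaling the difference was -0.23. Trh, the precursor of thyrotropin-releasing hormone, gave 381 ± 38.1 and 384 ± 38.5 in the odor-enriched and the control sample, and a difference of 0.30.

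**Figure D2:**
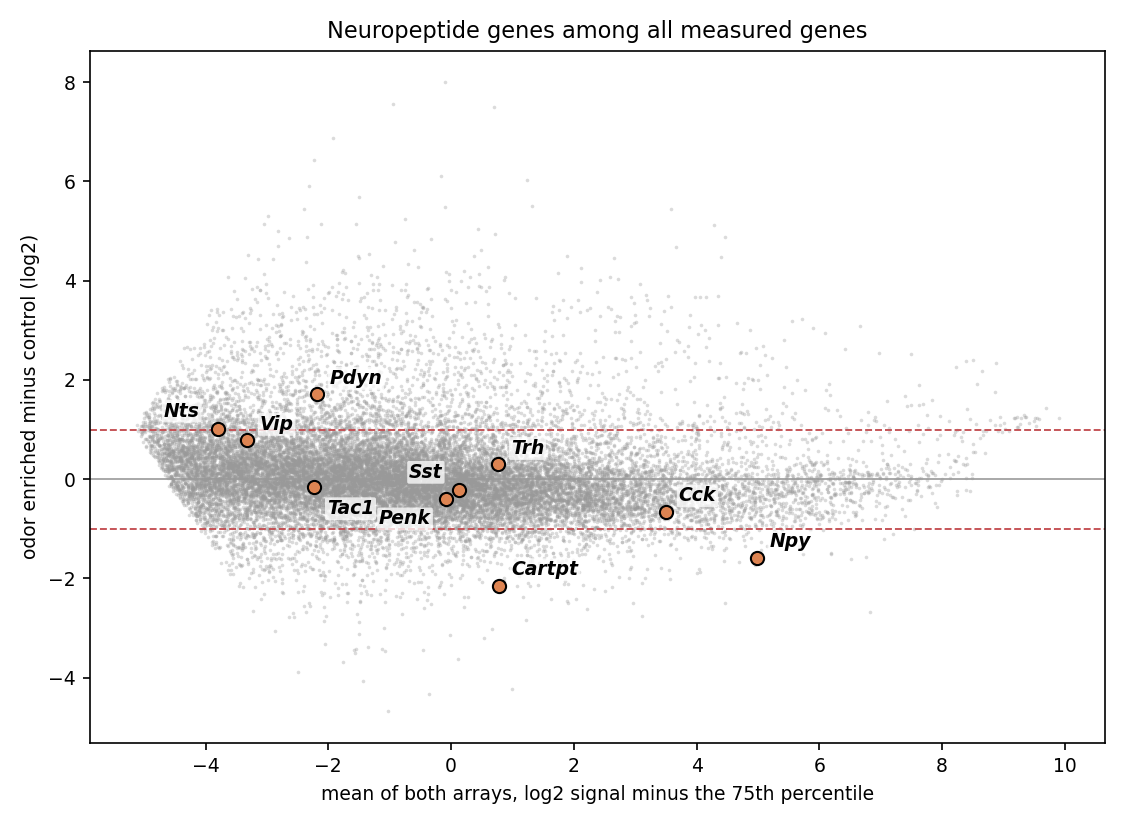
Difference between odor-enriched and control sample in log2 units (vertical axis) against the mean of both arrays as log2 signal minus the 75th percentile (horizontal axis), with 1 grey point for each of 23872 measured genes, orange points for the 10 neuropeptide genes and dashed lines at 2-fold. Npy and Cartpt lie under the lower line, Pdyn above the upper line and Nts on it at the dim end.

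Most of the 12 other settings either shift all members by nearly the same amount or leave genes with 1 probe as they are, and only quantile normalisation, cyclic loess and normexp changed the distances between Cartpt, Npy and Pdyn. In these 3 settings too Cartpt was the lowest member, Npy the next lowest and Pdyn the highest. The members between them changed places: Sst and Tac1 with quantile normalisation and loess, Cck and Penk with the brightest probe of a gene, and Tac1 moved below Penk and Sst with no filter on dim probes. Where 1 array above background sufficed, Tac1 moved below Cck, Penk and Sst, to -1.004. Cartpt and Npy were at least 2-fold lower under all 12, and Pdyn at least 2-fold higher under 10. Pdyn stood at 0.94 with normexp background correction and an offset of 50. Scaling the arrays on their E1A spike-in probes, RNA of known amount added to each sample, lowered every gene by 1.76. Under that scaling Pdyn stood at -0.052, Nts at -0.75, Vip at -0.98 and Trh at -1.47, and all 10 differences were negative. The count was then 0 of 10 members at least 2-fold higher and 7 of 10 lower, where 1.57% and 83.7% of all measured genes were. Where the arrays were centred on their medians or quantile normalised, or with cyclic loess, Nts was under 2-fold and 1 member was higher. Of all measured genes 8.95%, 9.99% and 11.7% were higher under these settings, in that order.

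Differences between members do not depend on such a constant, so their ranges come from the few settings that treat probes unequally. Pdyn relative to Cartpt was 3.86 log2 units higher in the odor-enriched sample, and from 2.82 to 3.86 over the 12 settings. Pdyn relative to Npy was 3.30 higher, and from 2.57 to 3.30. Npy relative to Sst stood at -1.36, and from -1.47 to -1.30.

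**Figure D3:**
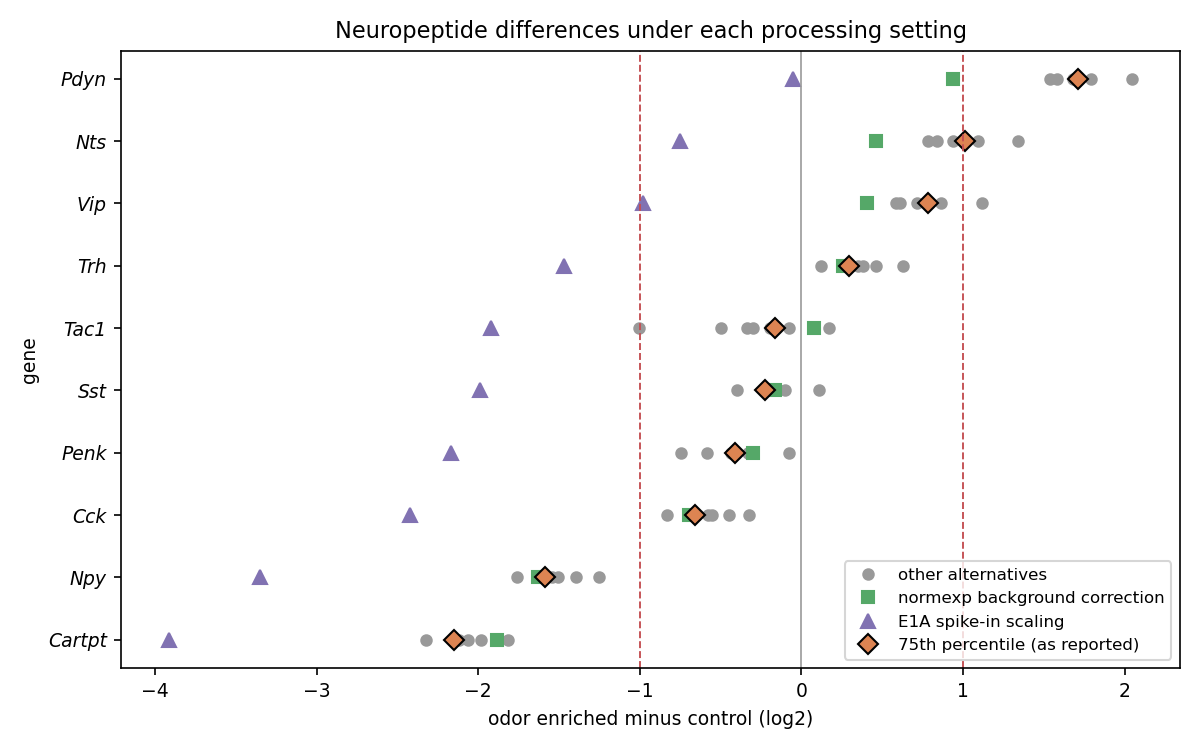
Difference between odor-enriched and control sample in log2 units (horizontal axis) for each neuropeptide gene (vertical axis) under the reported scaling and 12 alternatives, with dashed lines at 2-fold. The E1A spike-in scaling moves every gene to the left, to -0.052 for Pdyn and -3.91 for Cartpt.

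Other neuropeptide precursors were centred near 0. Both arrays measured 33 of the 47 that have a probe, and the median was -0.05. At least 2-fold higher were 4 of 33, Nmu (2.65), which encodes neuromedin U, Npw (1.40), Sct (1.33), which encodes secretin, and Nppb (1.16). Nppb encodes a natriuretic peptide and was dim, at -4.33 in the odor-enriched and -5.49 in the control sample. The lowest values well above background on these arrays were -4.66 and -5.69. Among the 5968 dimmest genes 16.3% were at least 2-fold higher. Gnrh1, the gonadotropin-releasing hormone precursor, was the 1 gene at least 2-fold lower (-1.19), and Avp, which encodes vasopressin, stood at -0.92. Over all measured genes 11.5% were higher and 5.52% lower by as much. A further 4 precursors, Grp, Iapp, Pnoc and Pyy, were detected in the control sample alone, where the detection limit was lower.

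With the reported scaling no measured receptor of these peptides differed by 2-fold, where 17% of all measured genes did. With the series matrix values 4 were at least 2-fold higher, where 18.7% of all measured genes were. With median centring 1 was at least 2-fold lower, where 8.63% of all measured genes were. Among 26 with a probe, 17 could be compared, and their median was 0.09. For neuropeptide Y the receptors Npy1r (0.95) and Npy4r (0.82) had the highest differences of the list, while the ligand's message was lower. The neurotensin receptor Ntsr2 (-0.998) and the TRH receptor Trhr (-0.66) had the lowest, beside ligand messages at 1.01 and 0.30. Among opioid receptors, Oprd1, which binds enkephalins, stood at 0.80 and Oprm1 at 0.29. Oprd1 was dim, at -4.18 in the odor-enriched and -4.98 in the control sample, close to the detection limits. Oprk1, the dynorphin receptor, was above background only in the control sample, where the detection limit was lower, as was Tacr1, the substance P receptor. Cckbr averaged 0.53 over 3 probes that ran from -0.92 to 3.35, so its direction rests on the probe.

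The enzymes that make active peptides from precursors were all detected on both arrays. Of 12, 1 was at least 2-fold higher, where 11.5% of all measured genes were, the amidating enzyme Pam (1.26, with 4 probes from 0.41 to 2.24). At least 2-fold lower were 2 of 12, where 5.52% of all measured genes were, Qpct (-1.72), which cyclises N-terminal glutamine, and Pcsk1n (-1.06), the inhibitor of the convertase Pcsk1. Furin stood at 0.70, and the convertases Pcsk1 (0.21) and Pcsk2 (-0.26) and the carboxypeptidase Cpe (-0.32) differed little.

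Dense-core vesicle genes had a median of -0.44. Of 16 measured, 2 were at least 2-fold lower, the synaptotagmin Syt4 (-1.14) and the granin Chga (-1.01), and 0 were at least 2-fold higher, where 5.52% and 11.5% of all measured genes were. The count of lower genes was 4 with median centring, 1 with quantile normalisation or loess, and 0 with normexp or the series matrix values. Of all measured genes, 8.63% were lower with median centring, 6.16% with quantile normalisation and 4.65% with loess. With normexp 2.61% were, and with the series matrix values 2.44%. The granins Chgb (-0.24) and Scg2 (0.50) and the small GTPases Rab27b (0.68) and Rab27a (0.62) differed by less. Rab27b is the mean of 3 probes that ran from -0.54 to 2.38, so its direction rests on the probe. Among peptide-degrading enzymes the median was 0.16, with 2 of 16 at least 2-fold higher, Enpep (1.35), which cleaves angiotensins, and Prcp (1.24). Over all measured genes the share was 11.5%. Trhde, which degrades TRH, stood at -0.59 and Npepps at -0.78.

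**Figure D4:**
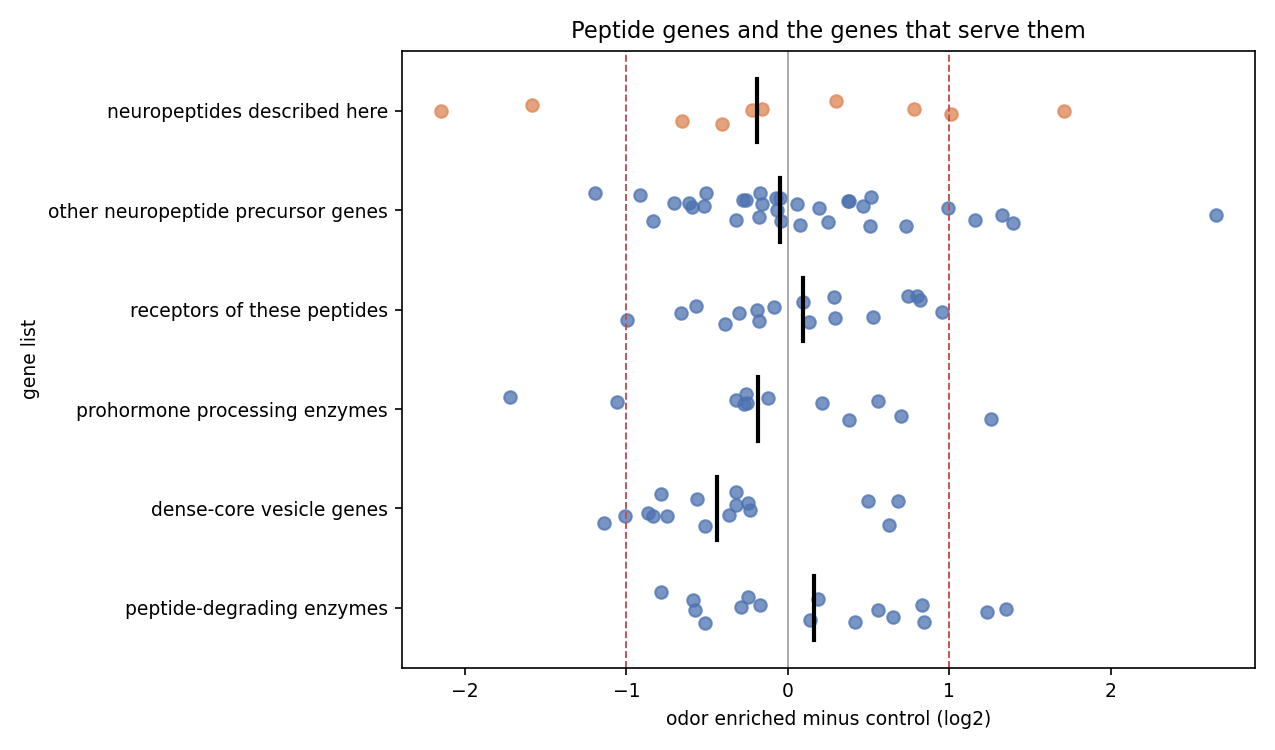
Difference between odor-enriched and control sample in log2 units (horizontal axis) for each measured gene of 6 gene lists (vertical axis), with black bars at the list medians and dashed lines at 2-fold. The 10 neuropeptides spread from -2.15 to 1.71 around a median of -0.19, and the 17 receptors lie inside the dashed lines under the reported scaling.

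The tissue was checked by its markers. All 18 markers of bulb interneurons were measured on both arrays, with a median of -0.30. Of these, 1 was at least 2-fold lower, the dopamine transporter Slc6a3 (-1.13), where 5.52% of all measured genes were. Calb2, which encodes calretinin, was the next lowest (-0.88), and the GABA enzyme Gad2 (0.14) had the highest difference. Their summed signal was 47.1 in the odor-enriched and 64.3 in the control sample. Cortical interneurons, which share Sst, Vip, Npy and Cck, had 8 measured markers with a median of 0.27. None of these 8 was past 2-fold, where 17% of all measured genes were. Neurons of the nearby striatum, which make Penk, Pdyn and Tac1, had 11 measured markers with a median of -0.13. Of the 11, 1 was at least 2-fold higher, Adora2a (1.89), and 2 were at least 2-fold lower, Rxrg (-1.63) and Pde1b (-1.41). Over all measured genes 11.5% were higher and 5.52% lower by as much. The dopamine receptor Drd1 stood at 0.63.

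The arrays differed beyond the peptides. Of 9 measured markers of olfactory sensory neurons 7 were at least 2-fold lower, where 5.52% of all measured genes were. Omp, the marker of mature sensory neurons, stood at -2.68. The summed signal of the 9 was 112 in the odor-enriched and 487 in the control sample. Most of each sum came from Omp and Gng13, so it is no measure of the cell class. All 14 measured markers of T and NK cells were at least 2-fold higher, where 11.5% of all measured genes were. The summed signal of these 14 was 112 in the odor-enriched and 3.85 in the control sample. Ccl5 made the largest part of each sum, at 6.31 and 0.86 log2 units in the odor-enriched and the control sample. No T or NK marker was below background in either sample. The part of these cells in the peptide differences was not tested. Of the spots, 67.6% in the odor-enriched and 73.7% in the control sample were well above background.

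Promoters of 9 members were in the RefSeq table of GRCm38.p6, from 250 bases before to 50 after the start. Cartpt and Sst were the members with the cAMP response element TGACGTCA, the palindrome bound by the activity-regulated factor CREB, which 1.79% of all 32851 promoters hold. They are shown because they share this word while their differences were -2.15 and -0.23. Capitals mark it.
Cartpt promoter, chr13:99900634-99900933, GRCm38.p6, minus strand: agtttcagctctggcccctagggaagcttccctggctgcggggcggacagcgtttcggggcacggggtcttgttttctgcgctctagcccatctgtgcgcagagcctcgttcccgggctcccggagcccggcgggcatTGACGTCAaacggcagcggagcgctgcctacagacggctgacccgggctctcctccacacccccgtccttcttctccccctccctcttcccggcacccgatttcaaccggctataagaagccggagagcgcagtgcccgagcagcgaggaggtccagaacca
Sst promoter, chr16:23890795-23891094, GRCm38.p6, minus strand: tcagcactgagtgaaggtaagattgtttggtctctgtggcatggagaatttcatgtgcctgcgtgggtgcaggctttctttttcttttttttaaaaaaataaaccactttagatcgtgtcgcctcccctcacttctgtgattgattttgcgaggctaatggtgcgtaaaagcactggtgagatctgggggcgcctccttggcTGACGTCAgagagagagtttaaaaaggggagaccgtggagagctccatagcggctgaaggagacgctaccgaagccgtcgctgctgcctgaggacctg
The variant TGCGTCA, searched on both strands, was in the windows of Cck and Tac1 and in 2.12% of all promoters. The AP-1 word TGACTCA was in that of Nts and in 5.2% of all promoters. None of these 3 words was in the windows of Npy, Pdyn, Trh or Vip, which says only that these letters are not there.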

How the data were processed

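Per the file headers, the authors read the arrays with Feature Extraction software (Agilent, version 11.5.1.1); the deposited processed intensity of a spot is background subtracted and detrended within its array, not normalised between arrays. The raw mean and local background intensities, as deposited, entered the normexp alternative. The deposited series matrix holds log2 values, which follow log2 of the processed signal minus a constant of 13.82 (odor enriched) and 14.46 (control), with an SD over probes of 0.00094 and 0.0095; what sets this constant and its centring stays unknown. Its medians are -8.98 for the odor-enriched and -9.48 for the control sample.

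Outlier-flagged spots (183 odor enriched, 122 control) were left out, no spot was saturated, spots of a probe were averaged as log2 signal, and each array's 75th percentile (7.66 odor enriched, 7.97 control) was subtracted. Genes are means over probes that both arrays measured well above background. The spots' 75th percentile was 277 (odor enriched) and 355 (control), with local backgrounds of 22 and 17 (medians). The threshold was 2-fold. The members, lists and alternatives were chosen with earlier results of these data known, and the ensheathing glia markers after their values were seen. All members, the 2 highest and 2 lowest genes of each list and genes past 2-fold could be named; receptors, enzymes and vesicle genes are given beside their peptide. With 1 array a group no test was made. Tools were limma 3.58.1 in R 4.3.3 for normexp, quantile and loess, and for the rest Python 3.11.15 with pandas 2.3.3, numpy 2.4.6 and matplotlib 3.10.9. The steps were tested on simulated data.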

Additional observations from a re-analysis of the deposited data

How the results depend on the processing

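No paired analysis was possible because each group has 1 array, and no replicate could be left out. The count of members at least 2-fold higher was 2 as reported, and 1 after median centring, quantile normalisation or cyclic loess. It was also 1 at a 3-fold threshold, and 0 with normexp or E1A scaling. Of all measured genes 8.95% were higher with median centring, 9.99% with quantile normalisation and 11.7% with loess. With normexp 5.26% were, and with E1A scaling 1.57%. The count of members at least 2-fold lower was 7 with E1A scaling, where 83.7% of all measured genes were, against 2 as reported. The median over the members was -1.96 with E1A scaling, and from -0.37 to 0.14 over the 11 other settings. E1A scaling turned Pdyn to -0.052, Nts to -0.75, Vip to -0.98 and Trh to -1.47, and the medians of the receptors to -1.67 and of the degrading enzymes to -1.60; it lowered all genes by 1.76, since the 8 detected E1A probes were 1.45 log2 units brighter (median, 1.22 to 4.42) on the odor-enriched array before scaling. Which scaling fits these samples was not tested. The median of all genes moved by -0.17 with median centring, 0.33 with the series matrix values and 0.21 with no filter on dim probes. The share of changed genes that were higher was 67.6% as reported, 50.9% with median centring, 74.3% with the 75th percentile over detected probes, 57.6% where 1 array above background sufficed, 80.3% without a filter, 88.5% with the matrix and 1.84% with E1A scaling. Where 1 array sufficed, Tac1 stood at -1.004, since the 2 probes seen in the control only then enter. At least 2-fold lower were 1317 genes as reported, 2061 with median centring, 2380 where 1 array sufficed, 2294 without a filter, 582 with the matrix, 622 with normexp and 19982 with E1A scaling. At least 2-fold higher were 2747 as reported, 9379 without a filter, 4466 with the matrix, 1256 with normexp and 374 with E1A scaling. Nts missed 2-fold with median centring (0.84), quantile (0.78), loess (0.94) and normexp (0.46), and Pdyn with normexp (0.94). Vip passed 2-fold with the matrix values (1.11), which also gave Sst 0.11 and Tac1 0.17, against -0.23 and -0.16 as reported; Tac1 was 0.079 with normexp. Receptors at least 2-fold higher were 0 as reported, 4 with the matrix, 4 without a filter and 1 with the 75th percentile over detected probes. Of all measured genes 11.5%, 18.7%, 25.3% and 13.0% were higher under these settings, in that order. Receptors at least 2-fold lower were 0 as reported, 14 with E1A scaling and 2 where 1 array sufficed. With median centring, normexp or no filter 1 was lower. Of all measured genes 83.7% were lower with E1A scaling and 8.80% where 1 array sufficed. The share was 8.63% with median centring, 2.61% with normexp and 6.19% without a filter. Apart from E1A scaling, the list medians ran from -0.62 to -0.11 for dense-core vesicle genes, and changed sign between settings for the other 4 lists. For dim members such as Nts and Vip, signals close to background limit the precision.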
